A study of Homo sapiens with 12 samples.

Results

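Integrins are cell-surface receptors, each made of an α and a β subunit, and laminins are extracellular proteins, each made of an α, a β and a γ chain. The 35 genes described here encode 17 integrin α subunits, 8 integrin β subunits and 10 laminin chains. They were all the genes whose probe set carried a single integrin-subunit or laminin-chain symbol, among 18377 genes measured in this way. Integrin-binding proteins were left out of this set. Each of the 35 was read by 1 probe set. ITGA1 shared its probe set with PELO and is not included, and LAMA3 was not analysed here.

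The cells were HT29, an established human colon adenocarcinoma line, grown in culture and given 70 nM methotrexate, an antifolate that blocks dihydrofolate reductase. Total RNA was hybridised to Affymetrix human gene arrays. The 12 arrays formed 4 groups of 3 biological replicates, namely control cells without methotrexate (0 h) and cells after 8, 24 and 48 h with it. All 4 groups were the same line with no genetic change named. The controls were a single group and no untreated cells of 8, 24 or 48 h were used here, so methotrexate and time in culture cannot be told apart.

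Laminins assemble into trimers inside the cell, are secreted, and polymerise into the basement membrane on which epithelial cells rest. Integrins bind these and other matrix proteins outside the cell and connect through adaptor proteins to actin or, for α6β4 in hemidesmosomes, to keratin filaments. The β subunit limits which α subunits a cell can pair: β1 has many partners, αV pairs with several β subunits, β2 is found on leukocytes, and β7 pairs with α4 or αE. In the gut, α4β7 and αEβ7 are best known from lymphocytes.

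The deposited values are log2 ratios to the median of the control arrays, so a value of 0 is the control median and absolute levels are not given. Differences are on this log2 scale, with limma's standard error (SE), and a gene is said to have risen or fallen where limma's Benjamini-Hochberg adjusted p over all 18377 genes was under 0.05. The median SE of a difference was 0.07 over all genes and between 0.04 and 0.12 over the 35 members. Array medians over all genes lay between −0.02 and 0.04. Replicate 3 of the 48 h group had limma's lowest array weight, 0.20, with 0.46 the next lowest. Replicate 2 of the same group had the highest, 6.52, with 2.18 the next highest, so weighted fits lean on it. The median over the members was 0.17 in replicate 3, against 0.07 and 0.05 in the other 48 h arrays. Levels of cell-type markers could not be checked from ratios. Of 12 colon epithelium markers, 1 rose and 1 fell at 8 h, 2 rose and 1 fell at 24 h, and 1 rose and 1 fell at 48 h. KRT20 had risen by 0.53 ± 0.05 at 24 h and 0.51 ± 0.05 at 48 h, and LGALS4 had fallen at 8, 24 and 48 h, with differences of −0.64 ± 0.06, −0.28 ± 0.06 and −0.37 ± 0.06 (± SE, limma adjusted p between 6.99e-06 and 0.0078). By limma, 0 of 10 fibroblast and 0 of 6 endothelial markers were called against control at any time, with 1 fibroblast marker at 24 h and no other at an unadjusted p under 0.05.

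Integrin and laminin genes differed from control in a minority of cases, mostly upward and most often at 48 h. At 8 h, 2 of the 35 rose (ITGB7 and ITGAE) and 2 fell (LAMB2 and ITGB8), when 12.1% of all genes rose and 12.0% fell. At 24 h, 6 rose and 1 fell, when 8.69% of all genes rose and 8.02% fell. At 48 h, 10 rose and 1 fell, when 13.0% of all genes rose and 12.3% fell. Taking both directions, 11.4%, 20.0% and 31.4% of members were called at 8, 24 and 48 h, against 24.2%, 16.7% and 25.3% of all genes. The median difference of the members from control was 0.06, 0.05 and 0.09 at the successive times, beside 0.02, 0.02 and 0.01 over all genes. A moderated F test called 11 of the 35 as differing among the 4 groups (31.4%), against 38.8% of all genes. ITGAE, ITGB2 and LAMA5, each called against control, did not pass it (F test adjusted p = 0.0526, 0.0628 and 0.114). ITGA6 and LAMB1, not called against control, did (F test adjusted p = 0.0326 and 0.00243). The arrays read RNA of whole cultures, in which a change in the cells present and a change in RNA per cell cannot be told apart. In all, 12 members were called against control at 1 or more times, and only ITGB7 and LAMB2 at all 3. Without replicate 3 of the 48 h group, 10 members were called at 48 h: ITGB2 (adjusted p = 0.0532) and LAMA5 (0.114) were lost and LAMB1 (0.0464) was gained.

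**Figure D1:**
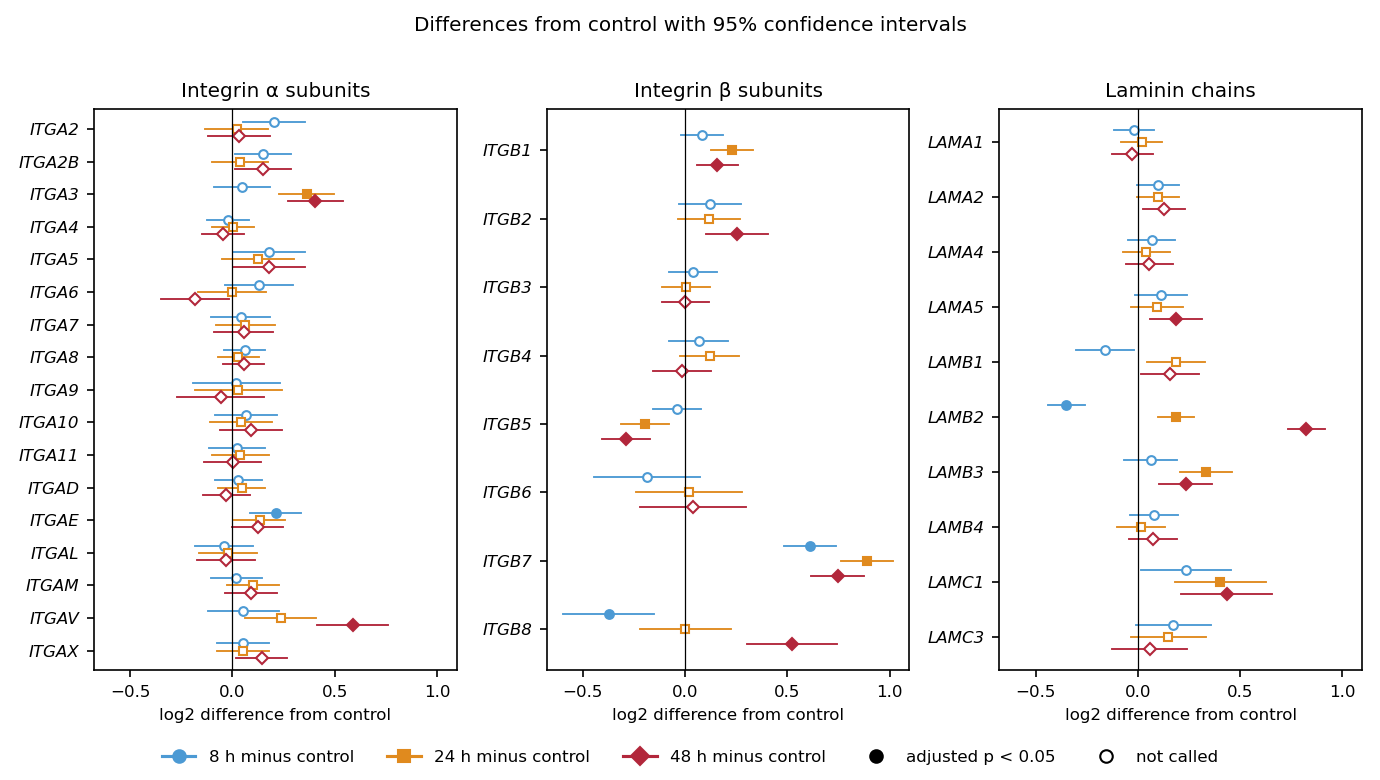
Log2 difference from control of each of the 35 integrin and laminin genes after 8, 24 and 48 h with 70 nM methotrexate. Points are limma estimates with 95% confidence intervals and filled points have an adjusted p under 0.05. Most intervals include 0, LAMB2 lies below 0 at 8 h and above it at 24 and 48 h, and ITGB7 lies between 0.61 and 0.89.

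LAMB2, ITGB8 and ITGB7 spanned the widest ranges over the 12 arrays (1.23, 1.08 and 1.004), and their promoter windows are shown because LAMB2 and ITGB8 both fell early and rose late while ITGB7 was higher throughout. Each window is RefSeq sequence of build GRCh38.p14 from 250 bases before to 50 bases after the gene's annotated start, written 5′ to 3′ along the gene's strand. Capitals mark matches, on either strand, to any of 5 motifs: AP-1 (TGANTCA), CRE (TGACGTCA), the GC box (GGGCGG), the TATA box (TATAAA) and the CCAAT box. ITGB7 lies on the minus strand at chr12:53207202-53207501, ITGB8 on the plus strand at chr7:20330650-20330949 and LAMB2 on the minus strand at chr3:49133001-49133300.
ITGB7: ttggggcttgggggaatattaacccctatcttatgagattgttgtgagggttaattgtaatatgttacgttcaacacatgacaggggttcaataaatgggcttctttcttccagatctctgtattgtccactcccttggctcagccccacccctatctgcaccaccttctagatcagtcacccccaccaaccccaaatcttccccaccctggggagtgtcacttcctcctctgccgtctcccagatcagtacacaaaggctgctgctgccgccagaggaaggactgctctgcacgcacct
ITGB8: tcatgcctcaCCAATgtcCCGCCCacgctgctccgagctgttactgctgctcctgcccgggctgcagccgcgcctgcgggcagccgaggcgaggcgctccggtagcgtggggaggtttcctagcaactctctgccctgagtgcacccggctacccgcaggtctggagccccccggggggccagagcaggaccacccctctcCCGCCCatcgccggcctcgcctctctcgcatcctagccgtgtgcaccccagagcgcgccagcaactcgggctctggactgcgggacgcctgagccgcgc
LAMB2: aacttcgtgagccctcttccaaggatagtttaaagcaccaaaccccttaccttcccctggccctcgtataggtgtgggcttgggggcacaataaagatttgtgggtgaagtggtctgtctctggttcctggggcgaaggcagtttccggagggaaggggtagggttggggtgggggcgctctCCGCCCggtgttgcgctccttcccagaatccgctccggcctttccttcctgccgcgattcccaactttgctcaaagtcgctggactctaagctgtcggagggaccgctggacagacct

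The window of ITGB7 held none of the 5 motifs and had 51.7% G and C. That of ITGB8 had 71.7% G and C, with GC boxes starting at positions −232 and −49 and a CCAAT at −240 from the start. That of LAMB2 had 58.7% G and C, which is also the median of all 35116 windows, with 1 GC box at −68. Of the 35 members, 24 had a window, 31 windows in all. A GC box was in 58.1% of these, against 45.0% of all windows. CCAAT was in 19.4% against 34.6%, AP-1 in 6.45% against 7.71%, TATAAA in 6.45% against 11.5%, and CRE in 0 of 31 against 1.85%. A match describes the letters and is not a binding site.

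Among the 10 laminin chains, 1 fell at 8 h, 3 rose at 24 h and 4 rose at 48 h. In either direction, 10%, 30% and 40% of these chains were called, beside 24.2%, 16.7% and 25.3% of all genes. No laminin chain rose at 8 h or fell at 24 or 48 h by limma, where 1 was higher at 8 h and 0 were lower at the later times at an unadjusted p under 0.05. LAMB2 encodes the β2 chain, found in basement membranes of kidney, muscle and nerve. LAMB2 (probe set 8087337) had log2 ratios of 0.00, −0.02 and 0.02 in control arrays, −0.38, −0.35 and −0.32 at 8 h, 0.19, 0.16 and 0.20 at 24 h, and 0.80, 0.82 and 0.85 at 48 h. The 4 groups did not overlap, and 8 h was lowest and 48 h highest. Against control, LAMB2 fell by 0.35 ± 0.04 at 8 h (limma adjusted p = 4.25e-05, 1.27-fold lower). It rose by 0.19 ± 0.04 at 24 h (adjusted p = 0.00701) and by 0.82 ± 0.04 at 48 h (adjusted p = 2.13e-08, 1.77-fold). Between times, LAMB2 was higher by 0.54 at 24 h than at 8 h (adjusted p = 3.16e-06), by 0.64 at 48 h than at 24 h (adjusted p = 2.27e-06), and by 1.17 at 48 h than at 8 h (adjusted p = 1.34e-09, 2.26-fold).

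LAMC1 encodes γ1, the γ chain of most laminins. LAMC1 (probe set 7908041) had log2 ratios of 0.07, 0.00 and −0.27 in control arrays, 0.32, 0.03 and 0.16 at 8 h, 0.23, 0.48 and 0.30 at 24 h, and 0.46, 0.41 and 0.24 at 48 h. All arrays of 24 and 48 h were above all controls, while 1 array of 8 h lay within the control range. LAMC1 was higher than control by 0.40 ± 0.10 at 24 h (limma adjusted p = 0.0153) and 0.43 ± 0.10 at 48 h (adjusted p = 0.00648), and differed by 0.24 at 8 h (adjusted p = 0.124). At 24 h the call was lost without control replicate 3 (difference 0.30, adjusted p = 0.0614) or without 24 h replicate 2 (0.33, adjusted p = 0.0579).

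LAMB3 encodes β3, a chain of the laminin of hemidesmosomes. LAMB3 (probe set 7924029) had log2 ratios of 0.04, 0.00 and −0.11 in control arrays, 0.04, 0.09 and −0.01 at 8 h, 0.30, 0.32 and 0.31 at 24 h, and 0.18, 0.13 and 0.33 at 48 h. The control and 8 h groups overlapped, and every array of 24 and 48 h exceeded them. LAMB3 was higher than control by 0.33 ± 0.06 at 24 h (limma adjusted p = 0.00171) and 0.23 ± 0.06 at 48 h (adjusted p = 0.0104). The 24 h arrays also exceeded the 8 h arrays, by 0.27 (adjusted p = 0.00565).

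LAMA5, the α chain common in mature epithelial basement membranes, rose by 0.19 ± 0.06 at 48 h (limma adjusted p = 0.0333), with ratios of 0.13, 0.09 and 0.33 in the 48 h arrays against 0.00, 0.00 and −0.02 in control arrays. The high array was replicate 3, without which the difference was 0.12, and the call was also lost without any 1 of the controls (adjusted p between 0.0785 and 0.0812). LAMB1, the widespread β1 chain, passed against control at no time: its differences were −0.16, 0.19 and 0.16 at 8, 24 and 48 h, with adjusted p of 0.102, 0.0729 and 0.0986. Between times it was higher at 24 h than at 8 h by 0.35 (adjusted p = 0.00201) and at 48 h than at 8 h by 0.32 (adjusted p = 0.00198). Its 8 h arrays, at −0.02, −0.23 and −0.14, were all below the 0.16 to 0.30 of the 24 h arrays and the 0.10 to 0.26 of the 48 h arrays. The remaining chains, LAMA1, LAMA2, LAMA4, LAMB4 and LAMC3, were called in no comparison.

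**Figure D2:**
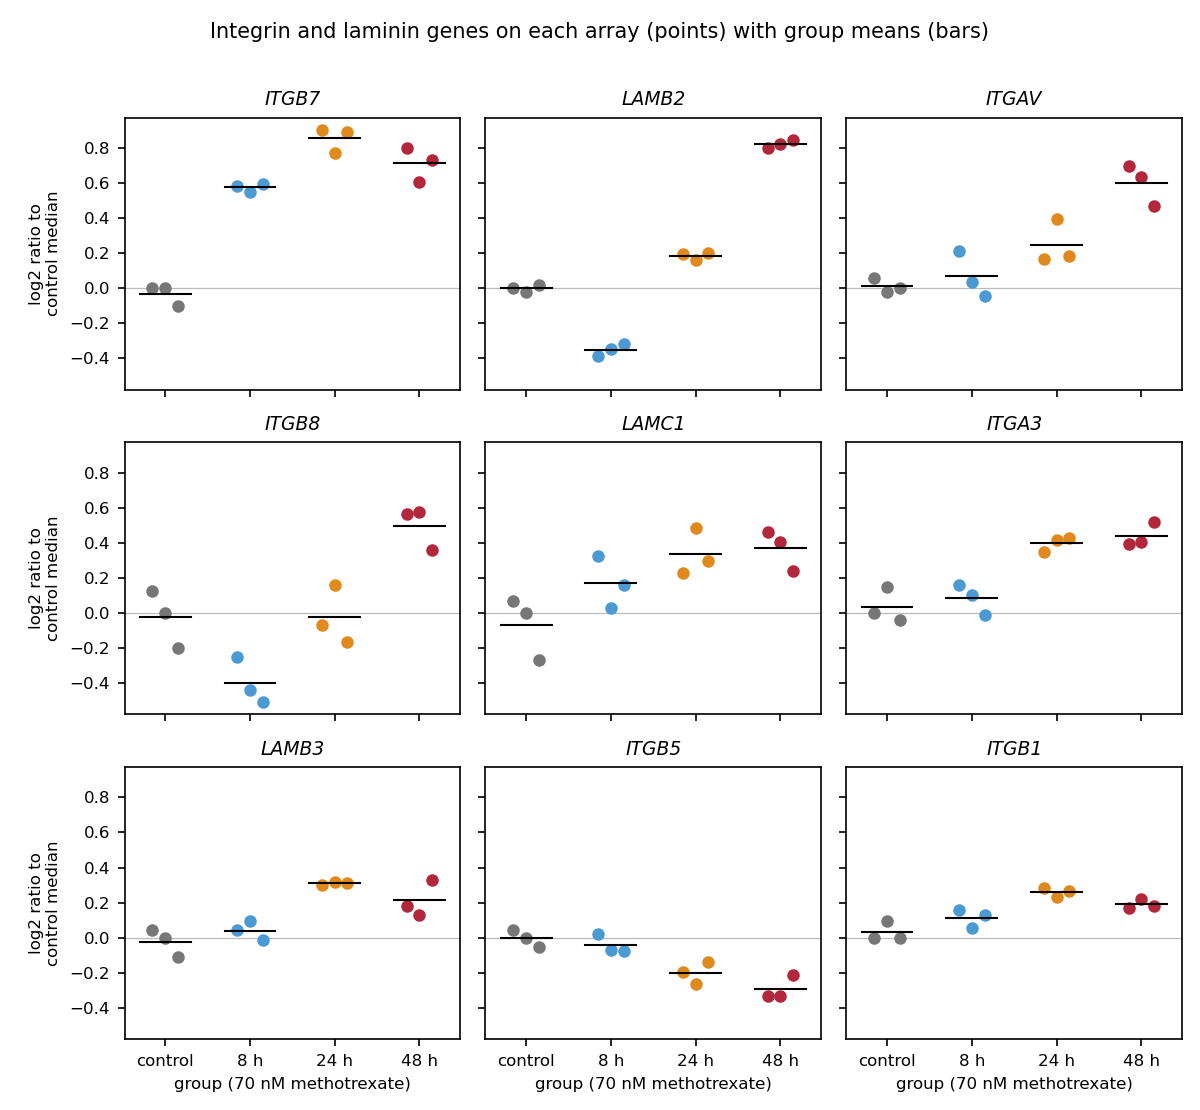
Log2 ratio to the control median in each of the 12 arrays for ITGB7, LAMB2, ITGAV, ITGB8, LAMC1, ITGA3, LAMB3, ITGB5 and ITGB1, by group (control, 8, 24 and 48 h with 70 nM methotrexate). Points are arrays and bars are group means. LAMB2 and ITGB8 are lowest at 8 h and highest at 48 h, ITGB7 is above control in all 9 treated arrays, and ITGB5 is lower than control at 24 and 48 h.

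Among the 8 β subunits, 1 rose and 1 fell at 8 h, 2 rose and 1 fell at 24 h, and 4 rose and 1 fell at 48 h. These are 25%, 37.5% and 62.5% of only 8 genes, beside 24.2%, 16.7% and 25.3% of all genes called. ITGB7, the partner of α4 and αE, was the only member called higher than control at all 3 times. ITGB7 (probe set 7963614) had log2 ratios of 0.00, 0.00 and −0.10 in control arrays, 0.59, 0.55 and 0.60 at 8 h, 0.90, 0.77 and 0.89 at 24 h, and 0.80, 0.61 and 0.73 at 48 h. Every treated array was above every control. The differences from control were 0.61 ± 0.06 at 8 h (limma adjusted p = 8.66e-06, 1.53-fold), 0.89 ± 0.06 at 24 h (adjusted p = 4.67e-07, 1.85-fold) and 0.75 ± 0.06 at 48 h (adjusted p = 1.18e-06, 1.68-fold). ITGB7 was higher at 24 h than at 8 h by 0.28 (adjusted p = 0.00455). Neither partner was called at all 3 times. ITGAE lay above control in its mean at each time, with unadjusted limma p of 0.0367 and 0.0497 at 24 and 48 h. ITGA4 differed from control by −0.02, 0.00 and −0.05 at 8, 24 and 48 h, which was not called. ITGAE rose at 8 h by 0.21 ± 0.06 (adjusted p = 0.0158), a call lost when control replicate 1 or 8 h replicate 1 or 2 was left out (adjusted p between 0.058 and 0.0698), and differed by 0.13 and 0.12 at 24 and 48 h (adjusted p = 0.146 for each).

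ITGB7, ITGAE and ITGB2 are best known from leukocytes, so the 7 leukocyte markers measured are given beside them. CD68, a lysosomal protein of macrophages that other cells also make, rose by 0.35 ± 0.06, 0.85 ± 0.06 and 1.08 ± 0.06 at 8, 24 and 48 h (limma adjusted p = 0.00109, 1.14e-06 and 8.37e-08). The other 6 were not called at any time, and PTPRC, the leukocyte common antigen, differed from control by −0.04, −0.02 and −0.03. Their part in these results was not tested.

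ITGB8 pairs with αV and is known for activating latent TGF-β. ITGB8 (probe set 8131666) had log2 ratios of 0.12, 0.00 and −0.20 in control arrays, −0.25, −0.44 and −0.51 at 8 h, −0.07, 0.16 and −0.16 at 24 h, and 0.56, 0.57 and 0.36 at 48 h. The 8 h arrays were the lowest and the 48 h arrays the highest, and the 24 h arrays overlapped the controls. ITGB8 was lower than control by 1.30-fold at 8 h, a difference of −0.37 ± 0.10 (limma adjusted p = 0.017), and higher by 0.52 ± 0.10 at 48 h (adjusted p = 0.002, 1.44-fold). The 8 h call was lost without control replicate 1 or 2 or without 8 h replicate 2 or 3 (adjusted p between 0.0574 and 0.0827). At 48 h ITGB8 was higher than at 8 h by 0.90 (adjusted p = 2.02e-05, 1.86-fold) and than at 24 h by 0.52 (adjusted p = 0.00612), and at 24 h it was higher than at 8 h by 0.37 (adjusted p = 0.02). The last of these calls was lost without 8 h replicate 2 or 3 or without 24 h replicate 2 (adjusted p between 0.069 and 0.0909).

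ITGB5, another αV partner and a vitronectin receptor subunit, was the only member to fall at 24 h (−0.20 ± 0.05, limma adjusted p = 0.0236) and at 48 h (−0.29 ± 0.05, adjusted p = 0.00139). Its 48 h arrays held −0.33, −0.33 and −0.21, against 0.04, 0.00 and −0.05 in control arrays. The 24 h call did not survive leaving out control replicate 1 or 2 or 24 h replicate 1 or 2 (adjusted p between 0.0672 and 0.0952). ITGB1, the partner of most laminin- and collagen-binding α subunits, rose by 0.23 ± 0.05 at 24 h (adjusted p = 0.00439) and 0.16 ± 0.05 at 48 h (adjusted p = 0.0252). The 48 h call was lost without control replicate 1 or 3 or without 48 h replicate 2 (adjusted p between 0.0813 and 0.091). ITGB1 held 0.29, 0.23 and 0.27 in 24 h arrays against 0.00, 0.10 and 0.00 in control arrays. ITGB2 rose at 48 h (0.25 ± 0.07, adjusted p = 0.0169), with 0.18, 0.15 and 0.41 in the 48 h arrays and −0.09, 0.00 and 0.07 in control arrays. It differed from control by 0.12 at both earlier times, and the 48 h arrays were not called against those of 24 h (adjusted p = 0.285) or 8 h (adjusted p = 0.207). The highest 48 h array was again replicate 3, and the call was also lost without control replicate 1 (adjusted p = 0.079). ITGB3, ITGB4 and ITGB6 were called in no comparison.

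Of the 17 α subunits, 1 rose at 8 h, 1 at 24 h and 2 at 48 h. By limma 0 fell at each time, with 0, 0 and 1 lower at an unadjusted p under 0.05. The shares of α subunits called were thus 5.88%, 5.88% and 11.8%, beside 24.2%, 16.7% and 25.3% of all genes. ITGA3, which pairs with β1 as a laminin receptor of epithelia, rose late. ITGA3 (probe set 8008237) had log2 ratios of 0.00, 0.15 and −0.04 in control arrays, 0.16, 0.10 and −0.01 at 8 h, 0.35, 0.42 and 0.43 at 24 h, and 0.40, 0.41 and 0.52 at 48 h. The arrays of 24 and 48 h were all above those of the other two groups, which overlapped each other. Its differences from control were 0.36 ± 0.06 at 24 h (limma adjusted p = 0.00136) and 0.41 ± 0.06 at 48 h (adjusted p = 0.000343). ITGA3 was also higher than at 8 h, by 0.32 at 24 h (adjusted p = 0.00292) and 0.36 at 48 h (adjusted p = 0.000629).

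ITGAV encodes αV, which binds RGD-bearing ligands such as vitronectin and fibronectin. ITGAV (probe set 8046861) had log2 ratios of 0.06, −0.02 and 0.00 in control arrays, 0.21, 0.03 and −0.04 at 8 h, 0.17, 0.39 and 0.19 at 24 h, and 0.70, 0.63 and 0.47 at 48 h. The 48 h arrays were above all others, and the 8 h arrays spanned the controls. ITGAV was higher than control by 0.59 ± 0.08 at 48 h (limma adjusted p = 0.00014, 1.50-fold) and differed by 0.24 at 24 h (adjusted p = 0.0668) and 0.05 at 8 h (adjusted p = 0.732). At 48 h it was higher than at 24 h by 0.35 (adjusted p = 0.0148) and than at 8 h by 0.53 (adjusted p = 0.000205). The call against 24 h was lost without 24 h replicate 1 or 3, without 48 h replicate 1 or 2, and when only these 2 groups were fitted (adjusted p between 0.0507 and 0.0676). Of the αV partners, ITGB8 and ITGB1 were higher than control at 48 h, ITGB5 was lower, and ITGB3 and ITGB6 were not called.

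ITGA6, the laminin receptor subunit that pairs with β1 or β4, was not called against control. It was lower at 48 h than at 8 h by 0.31 (a difference of −0.31, limma adjusted p = 0.00691), with −0.16, −0.04 and −0.39 in the 48 h arrays against 0.17, 0.07 and 0.12 in the 8 h arrays. Its hemidesmosome partner ITGB4 differed from control by 0.07, 0.12 and −0.01 at 8, 24 and 48 h, none called. The collagen receptor subunit ITGA2 came closest to a call at 8 h, at 0.20 (adjusted p = 0.0544). No other α subunit was called in any comparison: ITGA4, ITGA5, ITGA7, ITGA8, ITGA9, ITGA10, ITGA11 and ITGA2B, and the leukocyte subunits ITGAD, ITGAL, ITGAM and ITGAX, the partners of β2.

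In all, 21 members were called neither in a comparison nor by the F test, 13 α subunits, 3 β subunits and 5 laminin chains. Their differences from control lay between −0.19 and 0.20, and the median 95% interval, without adjustment, reached 0.14 to either side. Changes below about this size, and some above it, were not resolved with 3 arrays a group. At 8 h, ITGA2 at 0.20 and ITGB6 at −0.19 were not called (limma adjusted p = 0.0544 and 0.329). Groups were also compared by overlap. At 48 h, 15 of 35 members had every array above every control and 1 every array below, beside 17.9% of all genes each way. At 24 h these counts were 12 and 1, beside 17.8% and 15.2% of all genes, and at 8 h they were 10 and 3, beside 20.7% and 17.2%.

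Between treated times, 7 members were higher and 0 lower at 24 h than at 8 h by limma (2 lower at an unadjusted p under 0.05), when 9.99% of all genes were higher and 9.40% lower. The 7 were ITGA3, ITGB1, ITGB7, ITGB8, LAMB1, LAMB2 and LAMB3. Of these, ITGB1 was lost in 11 of 17 alternative fits (adjusted p between 0.0512 and 0.177) and ITGB8 in 3. At 48 h against 24 h, 3 were higher (ITGAV, ITGB8 and LAMB2) and 0 lower, again with 2 lower at an unadjusted p under 0.05, beside 5.26% and 4.86% of all genes. At 48 h against 8 h, 6 were higher and 2 lower, beside 15.3% and 14.4%. The higher ones were ITGA3, ITGAV, ITGB8, LAMB1, LAMB2 and LAMB3, and the lower ones ITGA6 and ITGB5. LAMB3 was lost here in 12 of the 17 alternative fits (adjusted p between 0.0504 and 0.157). The median member difference was 0.02, 0.00 and 0.01 in these 3 comparisons. The comparisons share arrays with each other and with those against control.

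The largest differences among other integrin ligands exceeded those of the members. Of 27 such genes, 8 rose and 3 fell at 8 h, 6 rose and 0 fell at 24 h (1 lower at an unadjusted p under 0.05), and 9 rose and 2 fell at 48 h, with medians of 0.07, 0.06 and 0.07. In both directions together, 40.7%, 22.2% and 40.7% were called, beside 24.2%, 16.7% and 25.3% of all genes. TNC, the matrix protein tenascin C, rose by 1.62 ± 0.09 at 8 h, 0.78 ± 0.09 at 24 h and 0.52 ± 0.09 at 48 h (limma adjusted p between 5.94e-08 and 0.000718). ICAM2, a ligand of the β2 integrin αLβ2, rose by 0.39 ± 0.08, 0.65 ± 0.08 and 1.26 ± 0.08 (adjusted p between 2.67e-07 and 0.00389). FN1, fibronectin, rose by 0.43 ± 0.10, 0.63 ± 0.10 and 1.001 ± 0.10 at the same times (adjusted p between 1.45e-05 and 0.00882). TNC was thus highest at 8 h, and ICAM2 and FN1 at 48 h. ICAM1 and MFGE8, picked after their values were seen, were lower at 8 h and higher at 48 h as LAMB2 was. ICAM1 differed by −0.51 ± 0.08 and 0.77 ± 0.08, MFGE8 by −0.42 ± 0.06 and 0.41 ± 0.06 (adjusted p between 1.08e-05 and 0.000314). How common this order of directions was over all genes is not given here.

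Of 19 other basement membrane components and laminin receptors measured, 0 rose and 3 fell at 8 h (0 higher at an unadjusted p under 0.05), 1 rose and 1 fell at 24 h, and 3 rose and 1 fell at 48 h, with medians of 0.02, 0.03 and 0.02. The shares called were 15.8%, 10.5% and 21.1%, beside 24.2%, 16.7% and 25.3% of all genes. FREM2, an extracellular matrix protein of the epithelial basement membrane, fell at each time, with differences of −0.37 ± 0.11, −0.85 ± 0.11 and −1.36 ± 0.11 at 8, 24 and 48 h (limma adjusted p between 1.29e-06 and 0.0255). NTN4, a netrin that binds the laminin γ1 chain, rose by 0.75 ± 0.08 at 24 h and 0.64 ± 0.08 at 48 h (adjusted p = 2.53e-05 and 5.74e-05). BCAM, a receptor for laminin α5, was −0.32 ± 0.06 from control at 8 h and 0.45 ± 0.06 at 48 h (adjusted p = 0.00126 and 8.87e-05). This was the same order of directions as LAMB2, and the share of all genes with that order is not given here.

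Of 29 adaptor genes of integrin adhesions, 9 rose and 3 fell at 8 h, 5 rose and 1 fell at 24 h, and 8 rose and 3 fell at 48 h, with medians of 0.04, 0.09 and 0.08. Counting rises and falls, 41.4%, 20.7% and 37.9% were called, beside 24.2%, 16.7% and 25.3% of all genes. TNS4, a tensin that binds β integrin tails, rose by 0.72 ± 0.07 at 8 h (limma adjusted p = 1.42e-05) and differed from control by 0.08 and −0.05 at the later times. ITGB1BP1, which binds the β1 tail, also rose at 8 h (0.49 ± 0.08, adjusted p = 0.000352), and differed by 0.22 and 0.06 later, which was not called. TGFB1I1, a paxillin relative, had the opposite timing, with −0.04 at 8 h, a rise of 0.42 ± 0.07 at 24 h (adjusted p = 0.000971) and of 0.60 ± 0.07 at 48 h (adjusted p = 3.51e-05). Among 4 hemidesmosome partners, 1 rose and 1 fell at 8 h and 1 rose at 24 and at 48 h. These are 50%, 25% and 25% of only 4 genes, to be read beside the same shares of all genes. DST, a plakin family linker to the cytoskeleton, rose by 0.46 ± 0.11 at 24 h and 0.59 ± 0.11 at 48 h (adjusted p = 0.0125 and 0.00169). PLEC, plectin, rose at 8 h by 0.27 ± 0.07 (adjusted p = 0.0134), and ERBIN, a binding partner of BP230, fell by 0.25 ± 0.07 at 8 h (adjusted p = 0.0178).

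**Figure D3:**
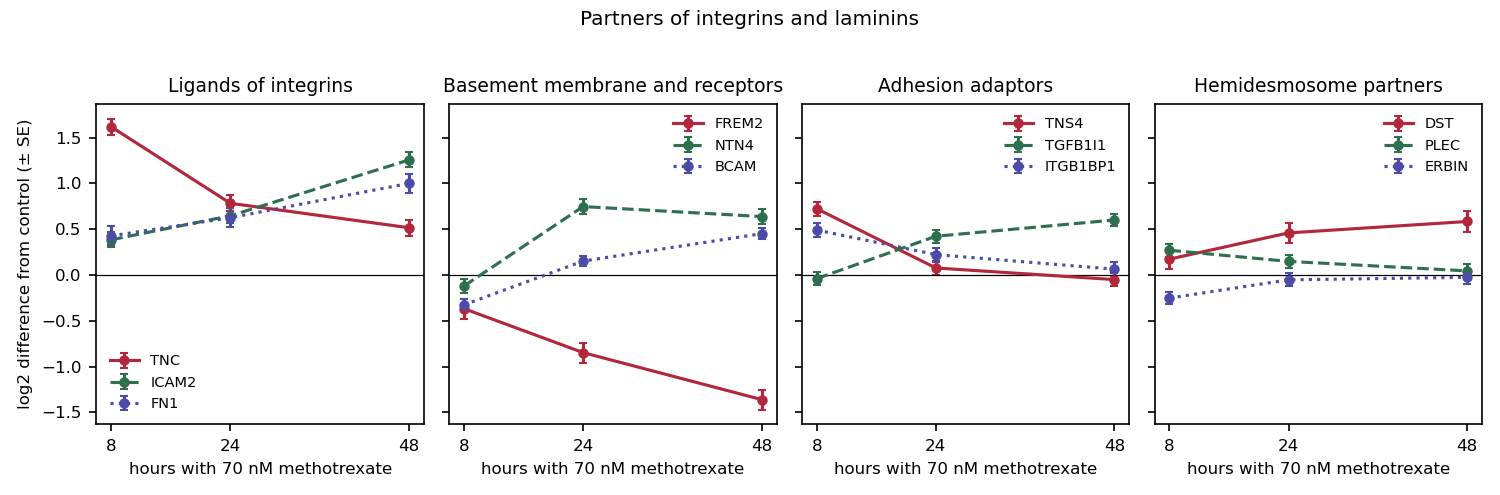
Log2 difference from control (limma estimate ± SE) after 8, 24 and 48 h with 70 nM methotrexate for the 3 called genes with the largest difference in each of 4 lists: other integrin ligands, basement membrane and laminin receptors, adhesion adaptors and hemidesmosome partners. TNC is highest at 8 h, ICAM2 and FN1 are highest at 48 h, and FREM2 is lowest at 48 h.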

How the data were processed

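Values were deposited by the authors as log2 numbers, 1 per probe set and array. RMA and build hg19 are named per the submitters' processing notes, with no version or order. As deposited, the 3 control arrays had a median of exactly 0 in each of the 28869 probe sets. Every value is therefore relative to the control median, a step not given in the sources used here. Absolute levels, and with them signal over background, are unknown, and the log base was taken from RMA. The number of arrays limits the precision.

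Of the probe sets, 19310 had 1 gene symbol in the platform annotation, 1752 several and 7807 none. Those with 1 symbol were used, and a gene with several such probe sets (685 of 18377) was given their mean. All 35 members matched a RefSeq gene ID.

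Differences were fitted in limma 3.58.1 (R 4.3.3), with all 12 arrays in 1 linear model of group means (lmFit, contrasts.fit, eBayes; 8 residual and 4.71 prior degrees of freedom). Tests were two-sided and Benjamini-Hochberg adjusted over 18377 genes, with calls at an adjusted p under 0.05. The script was tested on simulated data. Groups and replicate numbers came from the sample titles, and no array was left out. The labels do not say that a replicate number marks a shared batch, so the numbers were not taken as pairs. Of 18 same-numbered pairs of arrays, 11 had deviations from their group means correlated above 0.1 (range −0.45 to 0.47). This does not settle whether they were paired, and a replicate block was fitted as an alternative. Full values were given to the members called against control with a difference of at least 0.3, 7 in all. ITGB1, ITGB2, ITGB5, ITGAE, ITGA6, LAMA5 and LAMB1 were detailed further after their values were seen. From each related list the 3 called genes with the largest difference were named. Some genes of those lists were not analysed here. The members, lists and rules were chosen with earlier results of these data known, and the comparison of 48 h with 8 h was added after the values were seen. Alternatives were a replicate block, arrays weighted by quality, arrays centred on their own medians, only the groups compared, every probe set alone, and leaving out each array in turn. Promoter windows are RefSeq sequence (GRCh38.p14), whose build differs from hg19, and no coordinates of probe sets are given. Plots were made in matplotlib 3.10.9, with pandas 2.3.3 and numpy 2.4.6, under Python 3.11.15.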

Additional observations from a re-analysis of the deposited data

Results flagged for a closer look

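LAMB2 and ITGB8 were picked out because each was called in opposite directions against control at different times and the difference between those times was itself called by limma. LAMB2 was lower than control at 8 h and higher at 24 and 48 h. Its difference between times was 0.54 for 24 h against 8 h (adjusted p = 3.16e-06) and 1.17 for 48 h against 8 h (adjusted p = 1.34e-09). ITGB8 was lower than control at 8 h and higher at 48 h, and its difference for 48 h against 8 h was 0.90 (adjusted p = 2.02e-05). All 3 arrays of the later time were above all 3 arrays at 8 h in each case. The differences between times follow from the opposite calls on the same arrays, so they are not separate support for them. The ITGB8 call at 8 h against control rests on single arrays, as given above, while the LAMB2 calls held under every alternative run.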

How the results depend on the processing

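Each of the 40 calls of a member in a comparison of 2 groups was repeated under 17 alternatives, 12 of which left out 1 array. In these, 29 calls held throughout and 0 changed direction. ITGB7, LAMB2, ITGA3 and LAMB3 against control, ITGAV, ITGB8, LAMC1 and ITGB5 at 48 h and ITGB1 at 24 h were among the 29. The 17 alternatives did not test a call equally. Each member had 1 probe set, so fitting every probe set alone kept its values. Leaving out an array of neither compared group kept the difference and changed only the estimate of its spread and the adjustment. The tallies out of 17 therefore include fits that could hardly change a call. With limma's array weights the members called became 11 instead of 4 at 8 h against control, 11 instead of 7 at 24 h against control, 11 instead of 3 at 48 h against 24 h, and 19 instead of 11 by the F test, and the calls over all genes also increased (6079 instead of 3070 at 24 h, 5901 instead of 1860 at 48 h against 24 h). Leaving out 1 array gave 2 to 6 calls at 8 h against control, with 2 left without control replicate 1 or 8 h replicate 2. It gave 5 to 9 at 24 h and 8 to 12 at 48 h against control. With a replicate block 5, 8 and 11 members were called against control at 8, 24 and 48 h. The block lost ITGB1 at 24 h against 8 h (adjusted p = 0.0652) and LAMB3 at 48 h against 8 h (0.0622), and gained ITGA2 at 8 h (0.0331) and ITGAV at 24 h (0.0395). Of 12 arrays, 6 correlated best with their own number. ITGB1 at 24 h against 8 h and LAMB3 at 48 h against 8 h were lost in 11 and 12 of the 17 alternatives. ITGB1, ITGB2 and LAMA5 at 48 h were lost when only the 2 groups were fitted (adjusted p = 0.0735, 0.0603 and 0.101). A filter on dim probe sets was not run, since the deposited ratios keep no levels. The causes were not tested.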
